A study of Homo sapiens with 15 samples.

Results

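The 3 samples described here are T4 cells treated with an inhibitor of metalloproteinases or ADAM proteases, set against 3 samples of T4 without such an agent. They were chosen by their titles, which name GM6001, MMPs and ADAMs, or TNF protease inhibitor-2, and with the 3 T4 samples they make 6 of the 15 samples in the series. T4 is the malignant line and S1 the nonmalignant line of the HMT3522 human breast epithelial series, and every sample came from cultures embedded in a laminin-rich gel (3D lrECM in the labels). The submitters call all treated T4 samples reverted. GM6001 is a broad hydroxamate inhibitor of matrix metalloproteinases, labelled here as an MMP inhibitor. The sample titled MMPs and ADAMs received an inhibitor of both families whose name the labels do not give. TNF protease inhibitor-2 is known as an inhibitor of TACE, the ADAM17 protease that releases TNF from the cell surface. Each agent had 1 sample, and doses, times and solvents are not given. The series' design text mentions a vehicle without saying which of the T4 samples received it. For comparison the series holds 3 samples of S1 and 6 of T4 treated with other agents, namely PD98059 and LY294002 (inhibitors of MEK and PI3K), dominant-negative Rap1, 2 agents against EGFR (the kinase inhibitor Tyrphostin AG 1478 and the antibody mAb225), and an antibody against integrin β1 (AIIB2). Whether replicates were separate cultures is not stated, so each p-value speaks of the scatter among these arrays, part of which may be technical.

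ADAM proteases, ADAM17 above all, cut membrane-bound growth factors such as TGFα, amphiregulin and HB-EGF from the cell surface, and the freed ligands bind EGFR on the same or neighbouring cells. EGFR then drives the RAS-RAF-MEK-ERK chain, whose output includes its own feedback inhibitors (DUSP and Sprouty proteins), AP-1 transcription factors built from FOS and JUN proteins, and several EGFR ligands themselves. Matrix metalloproteinases cut extracellular matrix as well as surface proteins, and TIMP proteins inhibit both families. In cultured mammary epithelium the loop is known for sustaining the disorganised growth of malignant cells, which polarised acini lack.

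Values are deposited log2 expression values from Affymetrix U133A-type arrays. A difference of 1 on this scale is a doubling. The submitters' values came in 2 tables, 1 for each array type, and TNF protease inhibitor-2 lies in the second while GM6001, MMPs and ADAMs and all 3 T4 samples lie in the first. Sample medians lay between 7.33 and 7.40, and the lower quartile of each sample lay near 6.9, so values around 7 are close to the dim end and their true level may be lower. Unless another order is stated, 3 inhibitor values are those of GM6001, MMPs and ADAMs, and TNF protease inhibitor-2 as deposited, and 3 T4 or S1 values are those of samples 1, 2 and 3. Differences with their standard errors (SE) are inhibitors minus the named group from the limma fit over all 15 samples with the table as a block. Adjusted p-values are Benjamini-Hochberg values over the 9112 genes tested, with a threshold of 0.05, and a gene is said to have risen or fallen only where it passed.

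Samples within the groups were not equally far apart. GM6001 and MMPs and ADAMs differed at least 2-fold in 3 of 9112 genes, fewer than T4 samples 1 and 2, which differed in 6. T4 sample 3 differed at least 2-fold from T4 sample 1 in 356 genes and from T4 sample 2 in 426, against 695 between GM6001 and T4 sample 3 and 350 between GM6001 and T4 sample 1. The log2 of the summed level of 11 basal markers lay between 16.10 and 16.32 in the inhibitor samples and between 15.85 and 16.34 in T4. For 14 luminal markers the inhibitor samples gave 12.19 to 12.41, against 12.39 to 12.72 in T4. Fibroblast markers (10 measured) gave 10.68 to 10.88 with inhibitors and 10.63 to 10.79 in T4, and leukocyte and endothelial markers (16 measured) gave 11.09 to 11.13 with inhibitors and 11.05 to 11.18 in T4. On all 6 arrays 2 of the 10 and 2 of the 16 lay below the lower quartile, and of the 5 and 7 that were tested none passed in either direction. In such bulk samples fewer cells of a type and less RNA per cell cannot be told apart.

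With the inhibitors, 419 of 9112 genes were higher than in T4 (4.6%) and 567 lower (6.22%), together 986 genes or 10.8%. At least 2-fold changes made up 84 of the higher genes (0.922% of all tested) and 190 of the lower ones (2.09%). The median difference over all genes tested was -0.0095. With T4 sample 3 left out, 318 genes were higher and 551 lower. Leaving out GM6001 gave 449 calls, leaving out MMPs and ADAMs 368, leaving out TNF protease inhibitor-2 657 and leaving out T4 sample 1 580. Averaging GM6001 with MMPs and ADAMs, and likewise the other close pairs, left 134 calls (43 higher and 91 lower), an alternative chosen after seeing the data. With the first table's samples alone, 495 genes were higher and 542 lower.

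**Figure D1:**
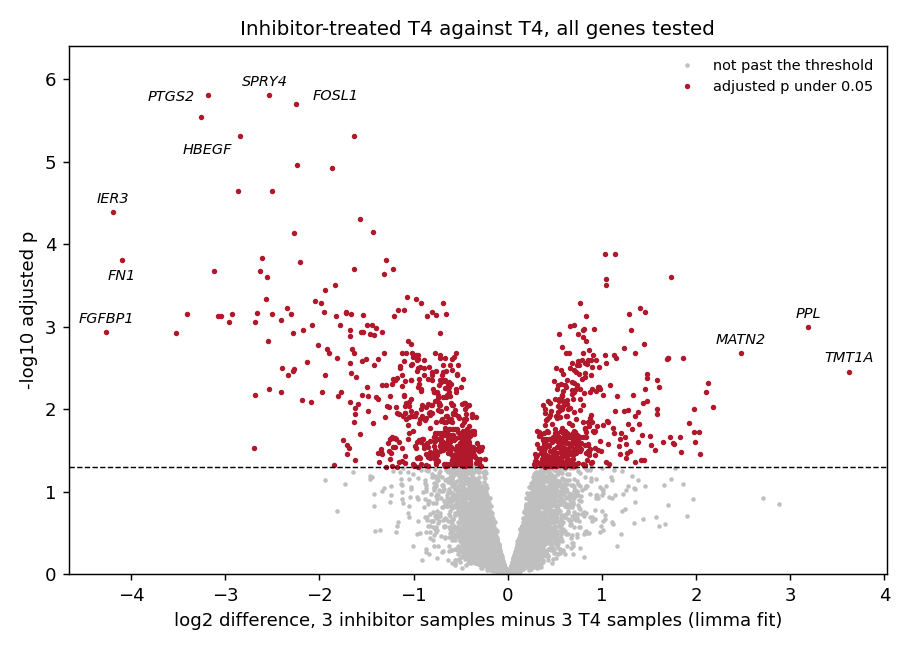
Each point is 1 of the 9112 genes tested, with its log2 difference (3 inhibitor samples minus 3 T4 samples, limma fit) on the horizontal axis and -log10 of its adjusted p on the vertical axis. Red points lie above the dashed threshold of 0.05, and the falls reach further (FGFBP1, -4.26) than the rises (TMT1A, 3.63).

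To show the regulatory sequence of responsive genes, promoter windows from 250 bases before to 50 after the gene's start were read from RefSeq (GRCh38.p14). The AP-1 site TGANTCA, searched on both strands, stood in 8.53% of the 469 windows of genes that fell (40 genes), in 4.47% of the 358 windows of genes that rose and in 4.77% of the 7501 windows of all genes tested. The share over all 27305 promoters in the table was 7.76%. Among the 12 largest falls, 1 of the 11 with a window held a match, that of AMIGO2. The windows below were chosen among those that hold a match, from genes that fell and are described further on, with each match in capitals. FN1, THBS1, PTGS2, HBEGF and SPRY4 fell too and had no match, whereas SERPINB13, ELOVL5 and SLC3A2 rose and had 1 each. PLAUR (chr19:43670120-43670419, minus strand) has its match starting 186 bases before the gene's start, ITGA5 (chr12:54419217-54419516, minus strand) 6 bases, CXCL8 (chr4:73740319-73740618, plus strand) 137 bases and AMIGO2 (chr12:47079902-47080201, minus strand) 231 bases. A match describes the letters only, and says nothing of binding.
PLAUR: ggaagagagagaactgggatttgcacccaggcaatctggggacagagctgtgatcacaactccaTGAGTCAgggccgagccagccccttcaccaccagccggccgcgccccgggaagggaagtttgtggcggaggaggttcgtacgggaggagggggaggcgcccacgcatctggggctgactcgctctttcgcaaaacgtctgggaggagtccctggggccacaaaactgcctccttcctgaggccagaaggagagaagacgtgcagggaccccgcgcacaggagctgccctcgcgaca
ITGA5: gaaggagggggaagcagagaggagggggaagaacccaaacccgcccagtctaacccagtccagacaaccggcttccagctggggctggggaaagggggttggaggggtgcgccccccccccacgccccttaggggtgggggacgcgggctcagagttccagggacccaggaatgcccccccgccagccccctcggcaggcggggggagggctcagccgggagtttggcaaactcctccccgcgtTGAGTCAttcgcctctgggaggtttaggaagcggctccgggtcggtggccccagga
CXCL8: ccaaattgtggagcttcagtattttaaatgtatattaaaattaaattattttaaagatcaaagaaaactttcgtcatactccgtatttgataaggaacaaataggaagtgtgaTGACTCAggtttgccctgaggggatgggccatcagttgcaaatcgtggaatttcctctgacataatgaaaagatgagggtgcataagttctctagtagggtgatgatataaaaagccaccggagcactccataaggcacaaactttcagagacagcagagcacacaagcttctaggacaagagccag
AMIGO2: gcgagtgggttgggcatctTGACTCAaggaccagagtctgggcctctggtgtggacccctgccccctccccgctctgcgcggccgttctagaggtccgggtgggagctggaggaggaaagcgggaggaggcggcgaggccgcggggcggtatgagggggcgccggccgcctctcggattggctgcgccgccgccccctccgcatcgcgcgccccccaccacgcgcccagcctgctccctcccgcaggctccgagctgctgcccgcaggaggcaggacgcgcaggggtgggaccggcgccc

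The window of HES1 (chr3:194135898-194136197, plus strand), a gene described with the Notch group, holds a match to GTGGGAA, the core of the site bound by the Notch partner CSL, which starts 85 bases before the gene's start and is in capitals here. This motif, searched on both strands, stood in 5.65% of the windows of all genes tested and in 4.26% of those of genes that fell.
HES1: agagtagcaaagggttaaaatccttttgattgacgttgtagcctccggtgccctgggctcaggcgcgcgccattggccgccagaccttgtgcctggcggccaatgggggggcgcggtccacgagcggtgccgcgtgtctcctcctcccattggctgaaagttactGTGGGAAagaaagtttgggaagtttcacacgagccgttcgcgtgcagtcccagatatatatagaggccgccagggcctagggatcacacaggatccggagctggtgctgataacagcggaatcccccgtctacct

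The largest falls were in a growth factor carrier, in feedback and early-response genes of ERK signalling, and in matrix and inflammatory genes. FGFBP1, a secreted protein that frees FGFs from the matrix, measured 8.57, 7.95 and 9.42 with the inhibitors, against 11.93, 12.44 and 13.12 in T4. It fell by 4.26 ± 0.58 (adjusted p = 0.00117). All 3 inhibitor samples lay below all T4 samples, with MMPs and ADAMs lowest, and S1 had 7.29, 7.11 and 8.91. IER3, an early-response survival gene, measured 8.04, 7.83 and 8.04 with the inhibitors and 12.26, 11.98 and 12.10 in T4, a difference of -4.19 ± 0.34, adjusted p = 4.07e-05, or 18.3-fold. Fibronectin (FN1), a matrix glycoprotein, stood at 7.21, 7.01 and 6.97 with the inhibitors, close to the dim end, against 11.56, 10.56 and 11.001 in T4, and it fell by 4.10 ± 0.39 (adjusted p = 0.000155). Of its 5 other probe sets 4 fell as well. In S1 FN1 had 7.11, 7.17 and 7.54 and IER3 7.74, 7.45 and 7.17, so that the inhibitor samples lay far nearer to S1 than to T4 in both genes.

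The matrix glycoprotein thrombospondin 1 (THBS1) fell by 3.40 ± 0.42 (adjusted p = 0.000699), with inhibitor values of 8.44, 8.02 and 8.33 and T4 values of 11.74, 12.03 and 10.72. The prostaglandin synthase PTGS2 (COX-2) had 6.83, 6.70 and 6.75 with the inhibitors and 10.42, 9.92 and 9.63 in T4, and it fell by 3.19 ± 0.16 (adjusted p = 1.57e-06). In each inhibitor sample PTGS2 lay below that sample's lower quartile, so its fold may be understated. The remaining large falls were PHLDA1 (-3.26 ± 0.19, adjusted p = 2.9e-06), the repressor BHLHE40 (-3.12 ± 0.32, adjusted p = 0.000211), ZBED2 (-3.08 ± 0.39, adjusted p = 0.000737), the adhesion protein AMIGO2 (-3.04 ± 0.39, adjusted p = 0.000737), the ectonucleotidase NT5E or CD73 (-2.96 ± 0.38, adjusted p = 0.00088) and the chemokine CCL20 (-2.93 ± 0.36, adjusted p = 0.000699). In NT5E and ZBED2 the T4 samples were spread over nearly 2 units, from 9.29 to 11.25 and from 9.48 to 11.35, and still did not overlap the inhibitor samples.

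The largest rises were in epithelial and detoxifying genes that were also high in S1, and in a few genes that were low in S1. TMT1A, a membrane-bound thiol methyltransferase also known as METTL7A, measured 12.26, 12.28 and 11.88 with the inhibitors, against 8.73, 9.94 and 7.02 in T4, a rise of 3.63 ± 0.60, adjusted p = 0.0035. Periplakin (PPL), which links desmosomes and the cornified envelope to keratin filaments, had 11.11, 11.02 and 11.11 with the inhibitors and 7.88, 8.96 and 6.92 in T4 (3.19 ± 0.42, adjusted p = 0.00102), and S1 had 11.59, 11.21 and 10.91. The inhibitor samples lay close together in PPL, whereas T4 spread over 2 units with sample 3 lowest. T4 sample 3 was the lowest of the T4 samples in TMT1A, GSTA4, RETREG1, ASS1, TGFBR3 and SSBP2 as well.

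GSTA4, a glutathione transferase for lipid peroxidation products, rose by 2.18 ± 0.44, adjusted p = 0.0094, the ER-phagy receptor RETREG1 by 2.13 ± 0.38, adjusted p = 0.00476 and the TGF-β co-receptor TGFBR3 by 2.03 ± 0.46, adjusted p = 0.0187. The small heat shock protein CRYAB rose by 1.99 ± 0.49, adjusted p = 0.0252, SSBP2 by 1.98 ± 0.45, adjusted p = 0.0188 and the transcriptional co-regulator CITED2 by 1.97 ± 0.40, adjusted p = 0.00989. The arginine-producing enzyme ASS1 measured 12.69, 12.83 and 12.88 with the inhibitors and 11.34, 11.93 and 9.55 in T4 (2.04 ± 0.55, adjusted p = 0.0354). ASS1 and CRYAB lost their call without T4 sample 1, without T4 sample 3 and without TNF protease inhibitor-2, and both, with TGFBR3, SSBP2, CITED2 and SERPINB13, also without GM6001 and without MMPs and ADAMs. With close pairs averaged, 13 of these 24 genes kept their call, 11 of the falls and 2 of the rises, TMT1A and PPL. Among the first table's samples ASS1, TGFBR3 and SSBP2 lost their call. With T4 and the inhibitors of that table fitted alone, NT5E and TMT1A lost theirs as well.

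**Figure D2:**
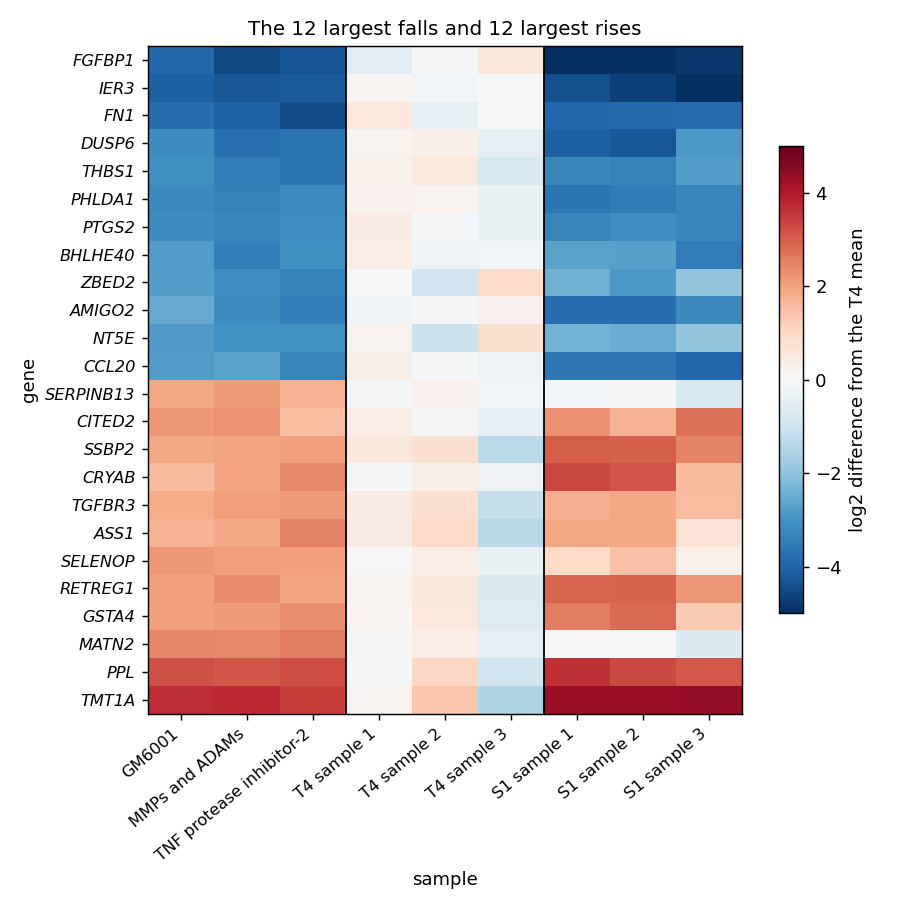
Colour gives the log2 difference of each sample from the T4 mean for the 12 largest falls and 12 largest rises, with inhibitor samples left, T4 in the middle and S1 right, and the table effect removed from TNF protease inhibitor-2 and S1 sample 3. Differences beyond 5 are drawn in the end colours. MATN2 and SERPINB13 are near 0 or below in S1 and above 1.5 in every inhibitor sample.

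MATN2, SERPINB13 and SELENOP stood above both lines. Matrilin-2 (MATN2), a matrix adaptor protein, measured 10.05, 10.003 and 10.15 with the inhibitors, against 7.67, 7.97 and 7.16 in T4 and 7.63, 7.63 and 6.89 in S1. Its difference was 2.48 ± 0.37, adjusted p = 0.0021 from T4 and 2.68 ± 0.36, adjusted p = 0.000581 from S1. SERPINB13, a keratinocyte protease inhibitor also called headpin, had 8.90, 9.10 and 9.19 with the inhibitors, 6.88, 7.20 and 6.86 in T4 and 6.84, 6.87 and 6.66 in S1, and 3 of its 5 other probe sets also rose against T4. Its difference from S1 was 2.27 ± 0.41, adjusted p = 0.00328. The plasma selenium carrier SELENOP measured 9.15, 9.08 and 8.66, 6.98, 7.36 and 6.59 in T4 and 7.97, 8.45 and 6.87 in S1, 1.20 ± 0.38, adjusted p = 0.0491 against S1. Complement C3, named after its values were seen, had 12.30, 12.40 and 12.79 with the inhibitors, 10.42, 10.86 and 10.07 in T4 and 9.04, 9.65 and 9.33 in S1, a difference of 1.86 ± 0.29, adjusted p = 0.00242 from T4 and of 3.16 ± 0.28, adjusted p = 3.28e-05 from S1. All 3 inhibitor samples lay above every T4 and S1 sample in MATN2, SERPINB13, SELENOP and C3, as they did in 4.76% of all genes tested, and these 4 were picked with their values known.

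EGFR ligands fell together while the receptor did not pass the test. The share of all genes tested that fell was 6.22%. Of 9 genes measured in the list of EGFR ligands and receptors, 5 passed the filter on dim genes, and of these 3 fell and none rose, with a median of -1.62. HB-EGF (HBEGF), a heparin-binding ligand, had 7.20, 7.26 and 7.32 with the inhibitors and 9.96, 10.55 and 9.70 in T4. It fell by 2.85 ± 0.18 (adjusted p = 4.93e-06), or 7.2-fold, and S1 had 7.10, 7.23 and 7.36. Epiregulin (EREG) had 6.89, 6.93 and 6.71 with the inhibitors and 9.13, 8.80 and 9.91 in T4, a difference of -2.41 ± 0.31, adjusted p = 0.000837. TGFα (TGFA) had 7.42, 7.26 and 7.50 with the inhibitors and 9.02, 8.37 and 9.81 in T4, a difference of -1.62 ± 0.34, adjusted p = 0.0114. In all 3 ligands every inhibitor sample lay below every T4 sample, as 15.8% of all genes tested did.

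EGFR itself measured 12.45, 12.40 and 12.75 with the inhibitors, against 12.87, 13.05 and 11.62 in T4 (-0.15 ± 0.38, adjusted p = 0.862). T4 sample 3 lay below all inhibitor samples and T4 samples 1 and 2 above all of them, so the groups overlapped. ERBB2, its partner receptor, had a difference of -0.27 ± 0.21, adjusted p = 0.483. EGF, BTC, ERBB3 and ERBB4 were among the 25% dimmest genes and were not tested. HBEGF and EREG kept their calls with close pairs averaged (adjusted p = 0.000686 and 0.0307), and TGFA did not (adjusted p = 0.104).

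**Figure D3:**
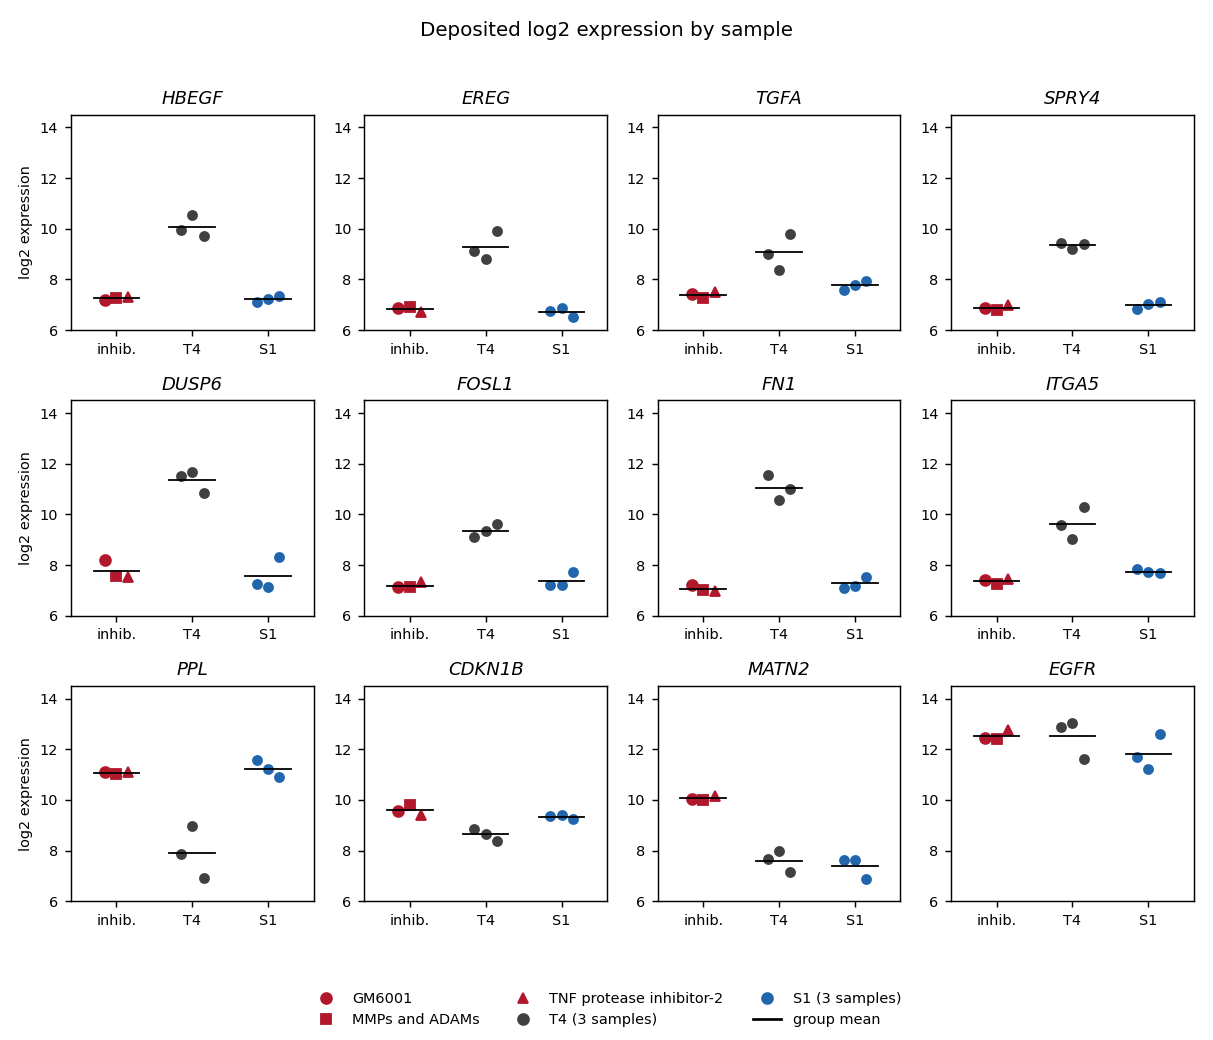
Deposited log2 expression of 12 genes in the 3 inhibitor samples, the 3 T4 samples and the 3 S1 samples, with bars at group means. The ligands HBEGF, EREG and TGFA, the ERK feedback genes SPRY4 and DUSP6, and FOSL1, FN1 and ITGA5 lie below T4 in every inhibitor sample, whereas EGFR overlaps.

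Among the proteases that these agents are made against and their relatives, ADAM and ADAMTS RNAs moved both ways. No tested matrix metalloproteinase passed. ADAM17 had 8.96, 8.87 and 9.09 with the inhibitors and 9.28, 9.42 and 9.13 in T4. It fell by 0.40 ± 0.12 (adjusted p = 0.0463), with TNF protease inhibitor-2 only just below T4 sample 3. The call was lost among the first table's samples (adjusted p = 0.0752). ADAM10, the main sheddase of EGF, betacellulin and Notch receptors, had 10.16, 10.08 and 10.42 with the inhibitors and 10.24, 10.34 and 10.44 in T4 (-0.20 ± 0.22, adjusted p = 0.654). The groups overlapped in ADAM10. ADAM15 had 8.48, 8.75 and 9.32 with the inhibitors and 8.06, 8.18 and 7.48 in T4, a rise of 0.77 ± 0.19, adjusted p = 0.0266. The secreted aggrecan protease ADAMTS1 fell by 1.55 ± 0.21 (adjusted p = 0.00116). Together 1 of 7 tested ADAM and ADAMTS genes rose and 2 fell (median -0.20), where 4.6% of all genes rose and 6.22% fell. ADAM17 lost its call without any 1 of the inhibitor samples, without T4 sample 1 or 2 and without any of several other samples, and ADAM15 without T4 sample 3, MMPs and ADAMs or TNF protease inhibitor-2.

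None of the 5 tested matrix metalloproteinases passed the test in either direction (median 0.05). Of these MMP2, MMP11 and MMP13 lay near the dim end, with T4 means of 6.91, 7.04 and 7.13. Membrane-type MMP14 had 7.93, 8.04 and 8.22 with the inhibitors and 8.06, 8.13 and 7.74 in T4 (0.01 ± 0.12, adjusted p = 0.961), and the gelatinase MMP2 had 7.03, 7.10 and 7.20 with the inhibitors and 6.87, 6.95 and 6.92 in T4 (0.15 ± 0.09, adjusted p = 0.328). The collagenase MMP1 measured 6.61, 6.62 and 6.62 with the inhibitors and 6.71, 6.62 and 7.21 in T4, and the gelatinase MMP9 6.88, 6.84 and 6.78 with the inhibitors and 7.17, 6.95 and 6.91 in T4. Both were too dim to be tested, together with MMP3, MMP7, MMP10, MMP12, MMP15 and MMP16. Among 7 tested inhibitors of metalloproteinases 2 fell and none rose (median -0.28), where 6.22% of all genes fell. Without any 1 of the inhibitor samples 1 of the 7 fell.

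TIMP1 had 10.81, 10.63 and 10.86 with the inhibitors and 11.76, 12.03 and 12.27 in T4, and it fell by 1.48 ± 0.30 (adjusted p = 0.0106). TFPI2, a Kunitz inhibitor of serine proteases that is also listed as acting on metalloproteinases, had 6.81, 6.75 and 6.74 with the inhibitors and 8.59, 7.92 and 11.38 in T4. It fell by 2.69 ± 0.69 (adjusted p = 0.0295), and sample 3 of T4 stood more than 2 units above the other T4 samples. TIMP2 (-0.28 ± 0.12, adjusted p = 0.18) and the matrix-bound TIMP3 did not pass. TIMP3 had 7.15, 7.14 and 7.16 with the inhibitors and 9.64, 8.74 and 7.001 in T4 (-1.25 ± 0.49, adjusted p = 0.132), with T4 sample 3 below all inhibitor samples and the other T4 samples above them.

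Genes that report ERK activity formed one of the lists with the most falls. Of 20 tested ERK output genes 11 fell and none rose, with a median of -1.36, against 6.22% of all genes that fell. SPRY4, a feedback inhibitor of receptor tyrosine kinase signalling, had 6.86, 6.81 and 6.98 with the inhibitors and 9.43, 9.21 and 9.41 in T4, and it fell by 2.54 ± 0.13 (adjusted p = 1.57e-06). The ERK phosphatase DUSP6 had 8.19, 7.58 and 7.54 with the inhibitors and 11.51, 11.69 and 10.85 in T4 (-3.53 ± 0.48, adjusted p = 0.0012). GM6001 was the highest inhibitor sample in DUSP6, still well below T4. The nuclear ERK phosphatase DUSP5 (-2.50 ± 0.31, adjusted p = 0.000704), the ERK-regulated ETS factor ETV5 (-1.62 ± 0.33, adjusted p = 0.0096), the ephrin receptor EPHA2 (-1.40 ± 0.19, adjusted p = 0.00104) and the Ras-ERK inhibitor SPRED2 (-1.03 ± 0.17, adjusted p = 0.00293) fell as well.

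MYC, EGR1 and cyclin D1 (CCND1), ERK output genes too, did not pass. Nor did the feedback inhibitors SPRY1 (0.70 ± 0.24, adjusted p = 0.0887), SPRY2 (-0.69 ± 0.24, adjusted p = 0.0968) and DUSP4 (-1.31 ± 0.45, adjusted p = 0.0895). MYC had 12.0004, 11.36 and 11.53 with the inhibitors and 12.90, 12.96 and 11.75 in T4 (-0.88 ± 0.34, adjusted p = 0.123). EGR1 had 9.77, 8.39 and 8.57 with the inhibitors and 11.10, 11.22 and 9.10 in T4 (-1.41 ± 0.78, adjusted p = 0.296). Both groups spread over more than 1 unit in EGR1, where GM6001 and T4 sample 3 crossed. With close pairs averaged 6 of the 20 ERK output genes fell, and among the first table's samples 11 fell and 1 rose.

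AP-1 and immediate early genes fell in 7 of 18 tested cases, with a median of -1.21 and no rise, where 6.22% of all genes fell. FOSL1 (FRA-1), an AP-1 subunit that ERK stabilises, had 7.13, 7.12 and 7.32 with the inhibitors and 9.12, 9.33 and 9.60 in T4, and it fell by 2.25 ± 0.12 (adjusted p = 1.99e-06). IER2 had 8.87, 8.51 and 9.26 with the inhibitors and 11.54, 11.37 and 10.65 in T4 (-2.27 ± 0.38, adjusted p = 0.00342), IER5 differed by -2.40 ± 0.45, adjusted p = 0.00621, the small MAF factor MAFF by -2.53 ± 0.46, adjusted p = 0.00566, JUNB by -1.23 ± 0.36, adjusted p = 0.0492 and ATF3 by -0.94 ± 0.16, adjusted p = 0.00436. FOS itself did not pass: it had 8.34, 7.79 and 7.38 with the inhibitors and 11.12, 10.20 and 8.06 in T4 (-1.81 ± 0.77, adjusted p = 0.172), and T4 sample 3 lay below GM6001. JUN differed by -1.02 ± 0.36, adjusted p = 0.0919. Without T4 sample 3, 11 of the 18 fell, and with close pairs averaged 2 did.

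Integrins, the receptors for laminin and fibronectin, had the highest share of falls of the 34 lists. Of 11 tested 7 fell and none rose (median -1.03), against 6.22% of all genes that fell. Integrin α5 (ITGA5), the α chain of the fibronectin receptor, had 7.41, 7.27 and 7.43 with the inhibitors and 9.60, 9.02 and 10.27 in T4, and it fell by 2.30 ± 0.28 (adjusted p = 0.000699). Integrin α2 (ITGA2, a collagen receptor chain) had 7.39, 7.33 and 7.31 with the inhibitors and 9.04, 8.74 and 9.46 in T4 (-1.82 ± 0.23, adjusted p = 0.000737). Integrin α6 (ITGA6, a laminin receptor chain) had 10.47, 10.24 and 10.14 with the inhibitors and 12.02, 12.02 and 12.39 in T4 (-1.97 ± 0.37, adjusted p = 0.00617). The inhibitor samples lay close together and below every T4 sample in ITGA5, ITGA2 and ITGA6.

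ITGB6 differed by -1.44 ± 0.19, adjusted p = 0.000954, ITGB5 by -2.19 ± 0.42, adjusted p = 0.00777, ITGA3 by -1.03 ± 0.21, adjusted p = 0.0104 and ITGAV by -0.81 ± 0.22, adjusted p = 0.0351. Integrin β1 (ITGB1), the shared partner of α2, α3, α5 and α6, had 12.54, 12.67 and 12.57 with the inhibitors and 12.71, 12.72 and 12.68 in T4 (-0.05 ± 0.10, adjusted p = 0.813). Integrin β4 (ITGB4), the hemidesmosome chain, had 10.67, 10.37 and 10.80 with the inhibitors and 11.72, 11.72 and 10.64 in T4 (-0.90 ± 0.32, adjusted p = 0.102). T4 sample 3 lay among the inhibitor samples in ITGB4, well below T4 samples 1 and 2. With close pairs averaged 3 of the 11 integrins fell.

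In the matrix, 3 of 12 tested fibronectin and interstitial matrix genes fell (FN1, THBS1 and LOXL2), where 6.22% of all genes fell. Of 14 laminin and basement membrane genes 3 fell (LAMB3, COL4A1 and COL4A2). Neither list had a rise, and the medians were -0.33 and -0.05. The collagen cross-linking oxidase LOXL2 had 7.35, 7.10 and 7.16 with the inhibitors and 10.59, 10.16 and 8.86 in T4 (-2.69 ± 0.35, adjusted p = 0.00088). The collagen IV chain COL4A1 had 7.56, 7.15 and 7.29 with the inhibitors and 10.45, 9.61 and 9.55 in T4 (-2.61 ± 0.25, adjusted p = 0.000149), and its partner COL4A2 differed by -1.78 ± 0.23, adjusted p = 0.000967. LAMB3, the β chain of laminin-332, had 9.54, 9.22 and 9.75 with the inhibitors and 11.64, 11.72 and 11.50 in T4 (-2.34 ± 0.28, adjusted p = 0.000591), and lay below S1 as well (-1.02 ± 0.27, adjusted p = 0.0219). The interstitial collagens COL1A1, COL1A2 and COL3A1 and the laminin chains LAMA5, LAMB1 and LAMC1 did not pass the test. These 6 genes that fell kept their calls with close pairs averaged.

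In the plasminogen system, which activates a broad matrix-cutting protease at the cell surface, 4 of 8 tested genes fell and none rose (median -1.17). Among all genes tested 6.22% fell. The tissue activator PLAT had 8.15, 8.05 and 7.72 with the inhibitors and 9.70, 9.27 and 9.51 in T4 (-1.55 ± 0.29, adjusted p = 0.00675). The urokinase receptor PLAUR had 7.66, 7.49 and 7.82 with the inhibitors and 8.55, 8.24 and 9.19 in T4 (-1.11 ± 0.21, adjusted p = 0.00699). SERPINE2, an inhibitor of these activators, had 7.27, 7.20 and 7.34 with the inhibitors and 9.68, 9.29 and 9.23 in T4 (-2.40 ± 0.39, adjusted p = 0.00319). PLAT and SERPINE2 lay below S1 too (-1.33 ± 0.28, adjusted p = 0.00815 and -1.74 ± 0.38, adjusted p = 0.00908). S100A10, which holds plasminogen at the membrane, fell by 0.59 ± 0.13 (adjusted p = 0.0142). With close pairs averaged none of the 8 passed.

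Of 18 tested genes of TGF-β signalling 5 fell and 2 rose (median -0.23), where 6.22% of all genes fell and 4.6% rose. Without T4 sample 1 or any 1 of the inhibitor samples 3 fell, and 1 rose without TNF protease inhibitor-2 and none without GM6001 or without MMPs and ADAMs. Activin A's subunit INHBA had 7.01, 7.09 and 6.98 with the inhibitors and 9.79, 9.39 and 9.68 in T4, and it fell by 2.51 ± 0.19 (adjusted p = 2.26e-05). BMP2 differed by -1.38 ± 0.21, adjusted p = 0.00244, the SMAD co-repressor SKIL by -1.10 ± 0.13, adjusted p = 0.000636 and TGFB1 by -1.27 ± 0.31, adjusted p = 0.0254, and ID2 rose (1.44 ± 0.40, adjusted p = 0.041) with TGFBR3. Inflammatory genes that answer to NF-κB fell in 4 of 20 tested cases with no rise (median -0.28). The neutrophil chemokine CXCL8 had 8.15, 7.99 and 7.40 with the inhibitors and 10.34, 10.08 and 10.81 in T4 (-2.68 ± 0.51, adjusted p = 0.00675). Interleukin-1α (IL1A) had 10.35, 10.60 and 9.90 with the inhibitors and 11.63, 10.83 and 12.04 in T4 (-1.22 ± 0.31, adjusted p = 0.029). The NF-κB feedback genes NFKBIA (0.47 ± 0.28, adjusted p = 0.333) and TNFAIP3 (0.30 ± 0.49, adjusted p = 0.769) did not pass.

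**Figure D4:**
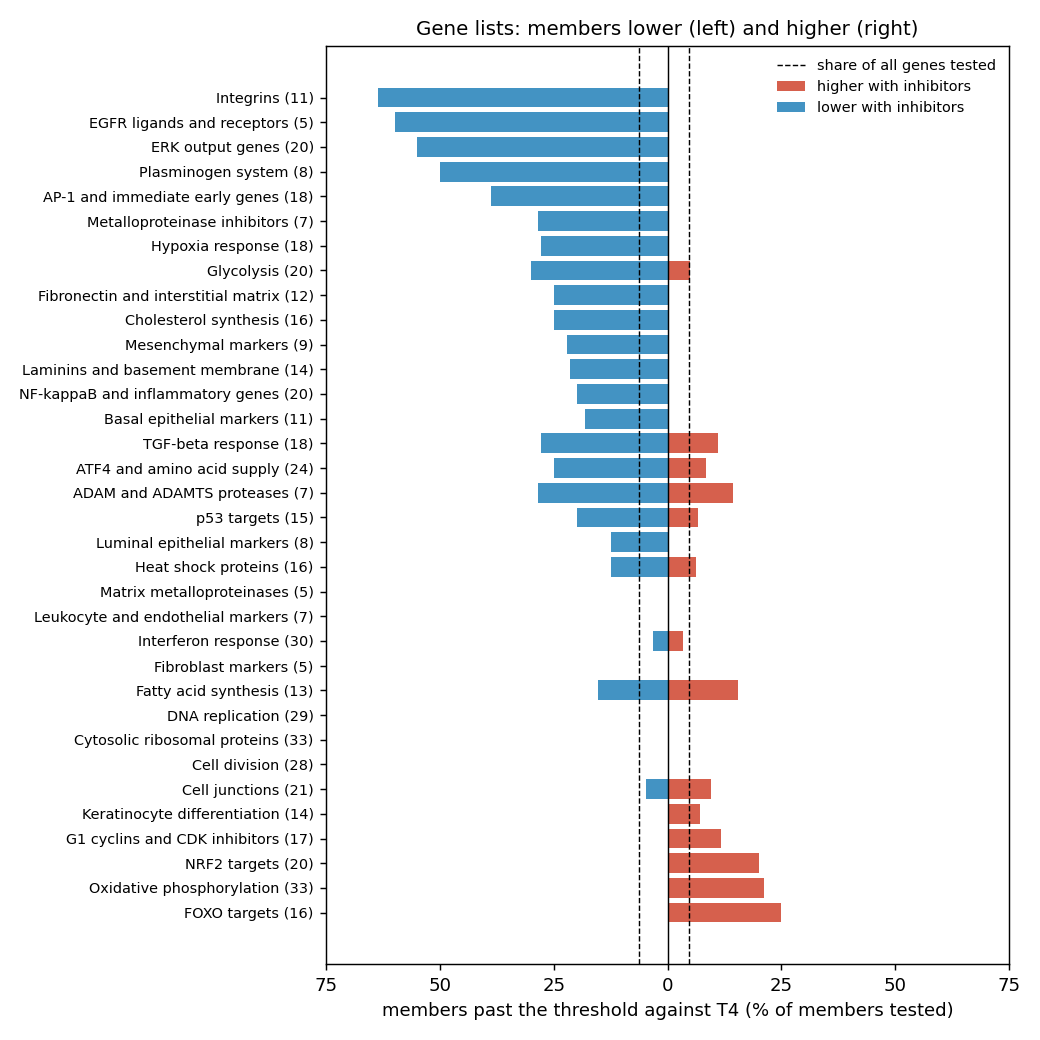
Bars give, for each of 34 gene lists, the percentage of tested members that were higher (red, right) or lower (blue, left) with the inhibitors than in T4, with the number tested in brackets. Dashed lines mark the 4.6% and 6.22% of all genes tested that were higher and lower. Integrins, EGFR ligands and receptors, ERK output genes and the plasminogen system reach 50% or more on the left, and FOXO targets reach 25% on the right.

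None of 28 cell division genes and none of 29 DNA replication genes passed in either direction. Their medians were -0.49 and -0.17, against -0.0095 over all genes tested. Lists were not tested as a whole, so the absence of calls does not show that these genes were unchanged. Without dominant-negative Rap1 2 of the cell division genes fell. The proliferation marker MKI67 had 8.38, 8.38 and 9.62 with the inhibitors and 9.63, 9.29 and 10.52 in T4 (-1.33 ± 0.47, adjusted p = 0.0987). GM6001 and MMPs and ADAMs lay below all T4 samples in MKI67, and TNF protease inhibitor-2 lay between T4 samples 1 and 2. The CDK inhibitor p27 (CDKN1B), which rises when PI3K signalling is low, had 9.57, 9.79 and 9.42 with the inhibitors and 8.86, 8.66 and 8.39 in T4, a rise of 1.04 ± 0.17, adjusted p = 0.00279. CDKN2A, another CDK inhibitor gene, had 11.22, 11.37 and 11.16 with the inhibitors and 10.36, 10.63 and 10.46 in T4 (0.91 ± 0.21, adjusted p = 0.0186), a call lost without T4 sample 1, MMPs and ADAMs or TNF protease inhibitor-2. The p21 gene CDKN1A had 7.37, 7.48 and 7.15 with the inhibitors and 9.86, 9.64 and 8.62 in T4 without passing (-1.94 ± 0.63, adjusted p = 0.0718), although every inhibitor sample lay below every T4 sample.

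Targets of FOXO factors, which AKT keeps out of the nucleus, rose in 4 of 16 tested cases with no fall (median 0.46), against 4.6% of all genes that rose. Without GM6001 or without MMPs and ADAMs 2 rose, and with close pairs averaged 1 did. These were CITED2, CDKN1B, sestrin 1 (SESN1) and FOXO1. SESN1 had 8.87, 9.37 and 8.63 with the inhibitors and 7.65, 7.60 and 7.49 in T4 (1.44 ± 0.21, adjusted p = 0.00163). FOXO1 had 9.97, 9.95 and 9.07 with the inhibitors and 9.15, 9.15 and 7.36 in T4 (1.35 ± 0.38, adjusted p = 0.0442), and TNF protease inhibitor-2 lay just below T4 samples 1 and 2 as deposited. FOXO1 lost its call among the first table's samples, without any 1 of the inhibitor samples (adjusted p = 0.0769 without TNF protease inhibitor-2) and without any 1 of the S1 samples. Among 15 tested p53 targets SESN1 rose, and the death receptors FAS (-0.84 ± 0.23, adjusted p = 0.0376) and TNFRSF10B (-0.97 ± 0.20, adjusted p = 0.0111) and the kinase PLK3 (-0.67 ± 0.10, adjusted p = 0.00239) fell (median -0.23). A single rise among 15 is near the 4.6% of all genes, and of the falls, against 6.22%, 1 was left without GM6001 and none with close pairs averaged, while 5 fell without AIIB2.

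Junction and differentiation genes moved in small numbers. Of 21 tested junction genes the desmosomal cadherin DSG3 (1.30 ± 0.34, adjusted p = 0.0325) and plakophilin 1 (PKP1, 1.04 ± 0.29, adjusted p = 0.0441) rose and P-cadherin (CDH3, -0.55 ± 0.15, adjusted p = 0.035) fell, with a median of 0.10. These counts are not far from the 4.6% and 6.22% of all genes that rose and fell. Without T4 sample 1, T4 sample 3 or any 1 of the inhibitor samples no junction gene rose, and CDH3 lost its call without TNF protease inhibitor-2 (adjusted p = 0.0808), GM6001, MMPs and ADAMs, or T4 sample 1 or 2. E-cadherin (CDH1) had 10.80, 10.96 and 10.64 with the inhibitors and 9.76, 10.20 and 9.75 in T4 (0.94 ± 0.34, adjusted p = 0.111). All inhibitor samples lay above all T4 samples in CDH1, as in 15.3% of genes, and among the first table's samples it passed (adjusted p = 0.0152). PPL was the 1 gene of 14 tested differentiation genes to pass. Keratin 16 (KRT16) had 10.06, 10.81 and 11.24 with the inhibitors and 8.13, 8.92 and 8.05 in T4 (2.71 ± 1.03, adjusted p = 0.12), with S1 spread from 7.76 to 12.72.

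Of 9 tested mesenchymal markers the repressor SNAI2 (-0.94 ± 0.23, adjusted p = 0.0239) and smooth muscle actin (ACTA2, -0.58 ± 0.12, adjusted p = 0.0115) fell, but none of the 9 did without MMPs and ADAMs and 1 did without GM6001, T4 sample 1 or T4 sample 2. Vimentin (VIM) had 12.63, 12.31 and 12.78 with the inhibitors and 13.56, 13.69 and 13.16 in T4 (-0.84 ± 0.25, adjusted p = 0.0538), and every inhibitor sample was lower. Among the first table's samples VIM passed (adjusted p = 0.0197), and with close pairs averaged it did not (adjusted p = 0.394). Keratin 18 (KRT18), the 1 of 8 tested luminal markers that passed, had 10.60, 10.41 and 10.81 with the inhibitors and 11.38, 11.81 and 11.53 in T4 (-1.12 ± 0.19, adjusted p = 0.00383). The basal markers S100A2 (-0.46 ± 0.09, adjusted p = 0.00832) and CDH3 fell among 11 tested, and neither did without GM6001. The medians were -0.09 for the mesenchymal, 0.01 for the luminal and 0.09 for the basal list. Of all genes tested 6.22% fell.

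Metabolic lists split by pathway. Glycolysis genes fell in 6 of 20 tested cases and rose in 1 (median -0.44), where 6.22% of all genes fell and 4.6% rose. There were 3 falls without GM6001, 2 without MMPs and ADAMs and 1 with close pairs averaged. The phosphofructokinase PFKP had 8.96, 8.65 and 9.23 with the inhibitors and 11.42, 11.12 and 11.23 in T4 (-2.57 ± 0.29, adjusted p = 0.00046), while its muscle-type relative PFKM had 10.99, 11.15 and 10.80 with the inhibitors and 9.99, 10.31 and 10.29 in T4 (0.83 ± 0.12, adjusted p = 0.00151). The glucose transporter SLC2A3 had 8.23, 8.20 and 8.08 with the inhibitors and 10.35, 9.91 and 9.28 in T4 (-1.64 ± 0.24, adjusted p = 0.00206). The regulator PFKFB3 differed by -0.83 ± 0.17, adjusted p = 0.0108 and lactate dehydrogenase A (LDHA) by -0.62 ± 0.14, adjusted p = 0.0172. Oxidative phosphorylation genes rose in 7 of 33 tested cases with no fall (median 0.40), against 4.6% of all genes that rose. The complex II anchor SDHD had 10.33, 10.65 and 10.02 with the inhibitors and 9.82, 9.83 and 9.55 in T4 (0.80 ± 0.12, adjusted p = 0.0021), and COX5B (0.70 ± 0.19, adjusted p = 0.04), NDUFB5 (0.67 ± 0.19, adjusted p = 0.0411) and NDUFV1 (0.44 ± 0.11, adjusted p = 0.0281) rose too. Without TNF protease inhibitor-2 or without T4 sample 1, 2 of the 33 rose, and without GM6001, without MMPs and ADAMs or with close pairs averaged 1 did. None of 33 cytosolic ribosomal protein genes passed (median 0.18).

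Of 18 tested hypoxia response genes 5 fell and none rose (median -0.37), against 6.22% of all genes that fell. Without T4 sample 3 there were 8 falls, without any 1 of the inhibitor samples or without T4 sample 1 or 2 there were 3, and with close pairs averaged 2. The angiogenic factor VEGFA had 7.40, 7.35 and 7.59 with the inhibitors and 9.86, 9.34 and 9.15 in T4 (-2.13 ± 0.34, adjusted p = 0.0027). ANGPTL4, an inhibitor of lipoprotein lipase, had 7.13, 7.02 and 7.22 with the inhibitors and 10.42, 9.14 and 9.77 in T4 (-2.63 ± 0.27, adjusted p = 0.000211). The prolyl hydroxylase subunit P4HA1 differed by -1.71 ± 0.46, adjusted p = 0.0349, with T4 sample 3 nearly 2 units below the other T4 samples. Genes of the ATF4 programme fell in 6 of 24 tested cases and rose in 2 (median -0.41), with 3 falls without GM6001 or T4 sample 2 and none with close pairs averaged. TRIB3 (-1.42 ± 0.23, adjusted p = 0.00293), the glycyl-tRNA synthetase GARS1 (-1.13 ± 0.17, adjusted p = 0.00207) and asparagine synthetase (ASNS, -0.99 ± 0.25, adjusted p = 0.0282) fell, whereas both chains of the leucine transporter rose, SLC3A2 by 1.24 ± 0.18, adjusted p = 0.00181 and SLC7A5 by 1.51 ± 0.36, adjusted p = 0.0212. The ER chaperones HSPA5 (-0.69 ± 0.12, adjusted p = 0.00443) and HSP90B1 (-0.49 ± 0.11, adjusted p = 0.0154) fell among 16 tested heat shock genes, where CRYAB rose. That is 1 rise and 2 falls of 16 where 4.6% of all genes rose and 6.22% fell, and none rose without T4 sample 1 or any 1 of the inhibitor samples.

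NRF2 targets, which defend against oxidants and electrophiles, rose in 4 of 20 tested cases with no fall (median 0.43), against 4.6% of all genes that rose. Without T4 sample 3 there were 7, without T4 sample 1 or any 1 of the inhibitor samples 2, and with close pairs averaged 1. Glutathione reductase (GSR) had 9.48, 9.53 and 9.31 with the inhibitors and 7.87, 8.14 and 8.10 in T4 (1.40 ± 0.17, adjusted p = 0.000591), and GSR lay above S1 as well (0.53 ± 0.16, adjusted p = 0.0432). Epoxide hydrolase 1 (EPHX1) rose by 1.24 ± 0.30, adjusted p = 0.0219 and the export pump ABCC2 by 1.19 ± 0.30, adjusted p = 0.0283, with GSTA4 as the fourth. The classic targets NQO1 (0.30 ± 0.43, adjusted p = 0.734) and HMOX1 (-0.33 ± 0.19, adjusted p = 0.326) did not pass. Among 13 tested fatty acid genes ACSL1 (1.70 ± 0.26, adjusted p = 0.00238) and ELOVL5 (0.76 ± 0.14, adjusted p = 0.00566) rose, and the desaturase SCD (-1.57 ± 0.37, adjusted p = 0.0202) and ELOVL1 (-0.66 ± 0.17, adjusted p = 0.0293) fell. Neither SCD nor ELOVL1 fell without T4 sample 1, and 6.22% of all genes fell in the main fit.

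Cholesterol synthesis genes fell in 4 of 16 tested cases with no rise (median -0.36), namely HMGCS1 (-0.78 ± 0.19, adjusted p = 0.022), IDI1 (-0.71 ± 0.12, adjusted p = 0.00473), MSMO1 (-0.60 ± 0.15, adjusted p = 0.0288) and SQLE (-0.54 ± 0.15, adjusted p = 0.0408). IDI1, which isomerises the isoprenoid building block, had 10.87, 10.87 and 11.16 with the inhibitors and 11.56, 11.44 and 11.72 in T4. Without TNF protease inhibitor-2 or without GM6001 1 of the 16 fell, without MMPs and ADAMs, T4 sample 2 or T4 sample 3 there were 2, and with close pairs averaged none. Of 30 tested interferon response genes 1 rose, IFI44L (1.06 ± 0.23, adjusted p = 0.0143), and 1 fell, ISG20 (-0.92 ± 0.26, adjusted p = 0.0463), with a median of 0.21, fewer than the 4.6% and 6.22% of all genes in the main fit. This low count of rises was not stable. Among the first table's samples 6 interferon response genes rose and 1 fell, and with 1 sample left out 0 to 5 rose and 0 to 2 fell.

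The inhibitor samples were also set against S1, the nonmalignant line. Here 763 genes were higher with the inhibitors (8.37%) and 737 lower (8.09%), 1500 or 16.5% in all, with a median over all genes of 0.0008. With close pairs averaged 353 genes passed. HBEGF (0.03 ± 0.17, adjusted p = 0.937), EREG (0.12 ± 0.30, adjusted p = 0.838), FN1 (-0.21 ± 0.38, adjusted p = 0.772), SPRY4 (-0.12 ± 0.13, adjusted p = 0.589), FOSL1 (-0.19 ± 0.12, adjusted p = 0.316) and ITGA5 (-0.37 ± 0.27, adjusted p = 0.403) showed no difference past the threshold, which does not show that the levels are equal. Of 20 tested ERK output genes 2 were higher and 2 lower than in S1, near the shares of all genes, and of 11 tested integrins none passed in either direction.

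Interferon response genes were higher with the inhibitors than in S1 in 16 of 30 tested cases and lower in none (median 0.79), against the 8.37% of all genes that were higher. The immunoproteasome subunit PSMB9 had 9.26, 9.22 and 9.49 with the inhibitors, 8.48, 8.73 and 8.34 in T4 and 7.09, 7.44 and 6.77 in S1, a difference of 2.22 ± 0.25, adjusted p = 0.000212 from S1. The inhibitor samples lay above T4 in PSMB9 without passing that test (0.72 ± 0.26, adjusted p = 0.103). The antigen-presenting genes HLA-B and HLA-C differed from S1 by 2.88 ± 0.30, adjusted p = 0.000126 and 2.70 ± 0.32, adjusted p = 0.000302, though these close relatives share sequence and their probe sets may cross-react. IFITM1 had 9.25, 9.04 and 9.61 with the inhibitors, 9.07, 9.09 and 8.61 in T4 and 7.88, 7.74 and 6.78 in S1 (1.83 ± 0.43, adjusted p = 0.0139 against S1). GBP1 differed from S1 by 1.55 ± 0.26, adjusted p = 0.00256 and TAP1 by 1.11 ± 0.17, adjusted p = 0.00152. Against T4, HLA-B (0.26 ± 0.31, adjusted p = 0.674) and HLA-C (0.20 ± 0.33, adjusted p = 0.78) did not pass. Neither did GBP1 (0.43 ± 0.28, adjusted p = 0.371) nor TAP1 (0.04 ± 0.18, adjusted p = 0.921).

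In cholesterol synthesis 5 of 16 genes were higher than in S1 and 1 lower (median 0.49), where 8.37% and 8.09% of all genes were. IDI1 differed from S1 by 1.39 ± 0.12, adjusted p = 3.08e-05, MSMO1 by 1.12 ± 0.15, adjusted p = 0.000541, INSIG1 by 1.30 ± 0.19, adjusted p = 0.000958 and HMGCS1 by 0.67 ± 0.18, adjusted p = 0.0242, and SQLE by -0.72 ± 0.14, adjusted p = 0.00611 in the opposite direction. IDI1, MSMO1 and HMGCS1 thus lay between both lines, below T4 and above S1. IL1A lay between them as well, with S1 at 8.07, 8.26 and 8.07 and a difference of 2.15 ± 0.30, adjusted p = 0.000792 from S1. Below S1 were also the p53 targets BAX (-0.55 ± 0.16, adjusted p = 0.0383) and FAS (-0.83 ± 0.22, adjusted p = 0.0244), vimentin (VIM, -0.92 ± 0.24, adjusted p = 0.0228), the laminin chain LAMB1 (-1.50 ± 0.26, adjusted p = 0.00307) and the complex III cytochrome CYC1 (-1.58 ± 0.11, adjusted p = 1.11e-05). In oxidative phosphorylation 5 of 33 genes were lower than in S1, where 8.09% of all genes were, and 1 was higher, below the 8.37% of all genes.

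Single agents have 1 sample each and so no test, and with unknown doses and times their values stand side by side without a comparison. Against the T4 mean, GM6001 had 116 genes at least 2-fold higher (1.27% of those tested) and 212 at least 2-fold lower (2.33%). MMPs and ADAMs had 126 higher (1.38%) and 240 lower (2.63%). TNF protease inhibitor-2, with the table effect removed, had 169 higher (1.85%) and 252 lower (2.77%), and as deposited 153 higher (1.68%) and 247 lower (2.71%). The table effect was estimated partly from the inhibitor samples, so values with it removed are not independent of the other inhibitors. For HBEGF the differences of the 3 agents from the T4 mean were -2.88, -2.81 and -2.85, for DUSP6 -3.16, -3.77 and -3.65, for ITGA5 -2.22, -2.36 and -2.32, for MATN2 2.45, 2.40 and 2.59 and for CITED2 2.15, 2.24 and 1.53, with the table effect removed from the last of each. The medians over the 20 ERK output genes were -0.92, -1.38 and -1.36, over the 16 FOXO targets 0.52, 0.70 and 0.20, and over the 33 oxidative phosphorylation genes 0.28, 0.41 and 0.48.

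GM6001 and MMPs and ADAMs share a table, and differed in few genes. The amyloid precursor protein gene APP had 8.73 with GM6001 and 10.50 with MMPs and ADAMs, the nuclear long noncoding RNA NEAT1 7.66 and 9.29, and TAF15 8.41 and 9.34, in the same order. RAD23B (10.05, 10.97 and 11.54) and PDIA3 (10.12, 10.96 and 11.17) were also lowest with GM6001 of the 3 agents. EGR1 had 9.77 with GM6001 and 8.39 with MMPs and ADAMs. DUSP7, SFRP1, BHLHE40 and MYC were higher with GM6001 by 0.78, 0.72, 0.66 and 0.64. Of these 10 genes APP, NEAT1 and EGR1 differed at least 2-fold.

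Against the other 6 agents no gene passed the threshold in limma's fit. At an unadjusted p under 0.05 there were 460 genes, 5.05% of those tested, and the smallest adjusted p was 0.138. With array weights limma called 81 genes higher and 48 lower. All 34 lists had no call in either direction, and the medians of EGFR ligands and receptors, ERK output genes and integrins were -0.21, -0.11 and -0.05. The genes named from here on were picked after their values were seen, from those with the smallest p or from a Notch list added later.

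HES1, a repressor that Notch signalling switches on, had 7.68, 7.50 and 8.11 with the inhibitors. In PD98059, LY294002, dominant-negative Rap1, Tyrphostin AG 1478, mAb225 and AIIB2 it had 9.36, 8.44, 8.79, 8.96, 9.38 and 9.24, in T4 9.68, 9.99 and 9.55 and in S1 9.66, 9.29 and 8.66. All 3 inhibitor samples lay below the other 12 samples, of which LY294002 was lowest, as in 22 of the 9112 genes tested (0.241%), and HES1 was picked from among these data. The difference was -2.02 ± 0.29, adjusted p = 0.00169 from T4, -1.44 ± 0.28, adjusted p = 0.00529 from S1 and -1.21 ± 0.27, adjusted p = 0.711 from the other agents. Notch receptors are cut by ADAM proteases before γ-secretase frees their intracellular part. The Notch list was added after values were seen and includes HES1, so its counts are not independent of that choice. Of 8 tested Notch receptors, ligands and targets 3 fell against T4 and none rose (median -0.08), where 6.22% of all genes fell. These were HES1, the ligand JAG1 (-1.68 ± 0.33, adjusted p = 0.00809) and the receptor NOTCH2 (-0.49 ± 0.13, adjusted p = 0.0283). The receptors NOTCH1 (-0.08, adjusted p = 0.905) and NOTCH3 (0.06, adjusted p = 0.694) did not pass. The target HEY1 had 7.15, 7.11 and 7.16 with the inhibitors and 7.33, 7.21 and 7.25 in T4 (-0.07 ± 0.10, adjusted p = 0.731), near the dim end. HES1 and JAG1 lost their calls against T4 with close pairs averaged (adjusted p = 0.051 and 0.127).

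**Figure D5:**
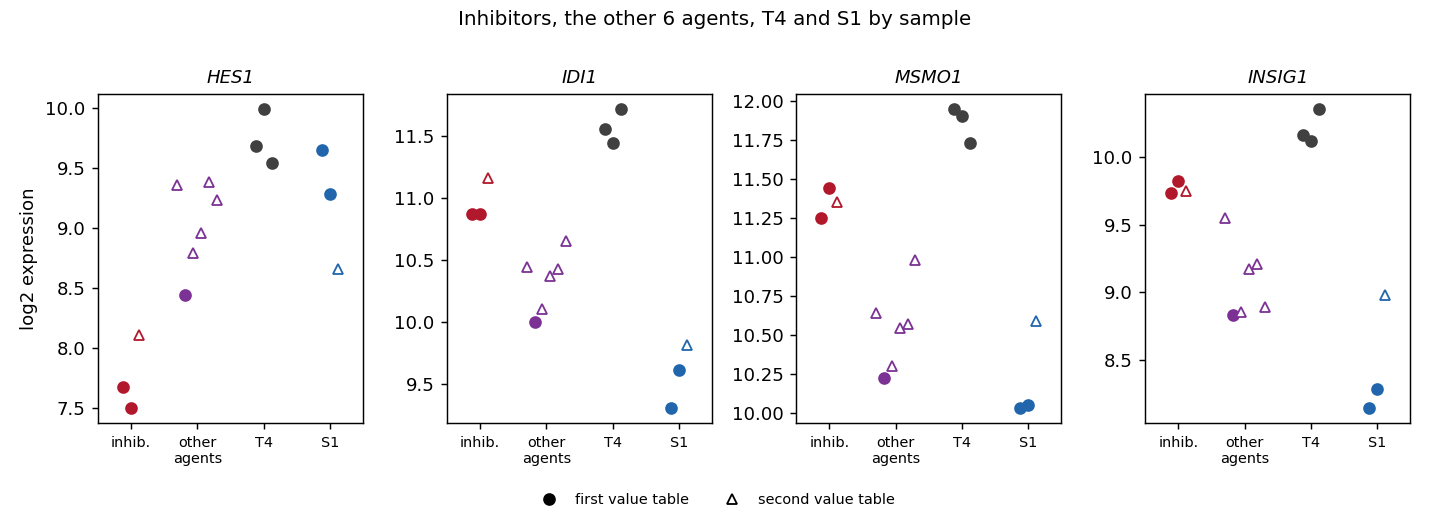
Deposited log2 expression of 4 genes, picked after their values were seen, in the 3 inhibitor samples, the 6 samples with other agents, T4 and S1, with filled circles for the first table and open triangles for the second. HES1 is lower in the inhibitor samples than in all others, and IDI1, MSMO1 and INSIG1 are higher there than with any other agent, as 2.78% of all genes tested were.

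Of 16 cholesterol synthesis genes none passed against the other agents in either direction, and the 3 given here were picked after their values were seen. IDI1 had 10.87, 10.87 and 11.16 with the inhibitors and 10.44, 10.0001, 10.10, 10.37, 10.43 and 10.65 with the other agents, in the order given for HES1 (0.79 ± 0.12, adjusted p = 0.138). The sterol methyl oxidase MSMO1 had 11.25, 11.44 and 11.35 with the inhibitors and 10.64, 10.22, 10.30, 10.54, 10.57 and 10.98 with the other agents (0.94 ± 0.14, adjusted p = 0.138). The sterol sensor partner INSIG1 had 9.73, 9.82 and 9.75 with the inhibitors and 9.55, 8.84, 8.85, 9.18, 9.21 and 8.89 with the other agents (0.87 ± 0.18, adjusted p = 0.711). All 3 inhibitor samples lay above the other 6 agents in IDI1, MSMO1 and INSIG1, as they did in 2.78% of all genes tested, and the median over the 16 cholesterol synthesis genes was 0.43, against -0.0049 over all genes. Such a median was not particular to this list. DNA replication genes had 0.51, cell division genes 0.48 and fatty acid genes 0.40 against the other agents, also without a call.

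SCD, the desaturase that makes oleic acid, had 10.78, 10.57 and 11.01 with the inhibitors and 10.63, 8.73, 10.28, 10.35, 10.35 and 10.53 with the other agents (1.45 ± 0.34, adjusted p = 0.711). LY294002, the 1 other agent in the first table, was lowest in SCD, and against it alone the first table's samples called SCD (GM6001 and MMPs and ADAMs higher by 1.95, adjusted p = 0.0291) and SERPINB13 (2.22, adjusted p = 0.037). Without TNF protease inhibitor-2 SCD passed against all 6 (2.40, adjusted p = 0.0114). STAR, which carries cholesterol into mitochondria, had 8.32, 8.27 and 8.13 with the inhibitors and 7.48, 7.12, 7.42, 7.63, 7.74 and 7.32 with the other agents (0.70 ± 0.16, adjusted p = 0.711), and it rose against T4 (0.96 ± 0.17, adjusted p = 0.00545). The inositol phosphatase INPP1 had 8.98, 8.97 and 8.73 with the inhibitors and 8.08, 7.93, 8.26, 8.34, 8.31 and 8.50 with the other agents (0.59 ± 0.13, adjusted p = 0.711).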

How the data were processed

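Per the labels' protocols, Trizol was used to extract total RNA of 15 samples, which was biotin-labelled for Affymetrix arrays. The authors deposited log2 values of 22215 probe sets in 2 tables, 1 per array type. For their software, background correction and normalization, also across the tables, the entry is not given in the sources used here. Precision is limited by the number of arrays. Of the probe sets 19707 had 1 gene in the platform annotations, 614 several and 1706 no name here, and 188 differed between annotations. Each of 12149 genes was represented by its brightest probe set, and 9112 were tested after the 25% dimmest genes were left out. Genes without a probe set of their own, AREG among them, are not analysed here.

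Limma 3.58.1 in R 4.3.3 (lmFit, eBayes, 2-sided) fitted 1 model over all 15 samples with 5 groups (protease inhibitors, signalling agents, receptor agents, T4, S1) and the table as a fixed block, leaving 9 residual degrees of freedom. By that term 421 genes stood higher and 378 lower in the second table. Outside S1 the term compares different agents, so array type and agent cannot be told apart in it. T4 lies in the first table only, so TNF protease inhibitor-2 reaches it through the table effect. That effect was estimated within the groups that span both tables, namely S1, the signalling agents and the protease inhibitors themselves. Part of the difference between TNF protease inhibitor-2 and the other inhibitors is thus taken into it. Counts with the first table alone stand beside the result. The comparison with the other 6 agents takes the mean of their classes. The procedure was tested on simulated data.

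The members and lists were chosen with earlier results of these data known. Named genes were the 12 largest changes in each direction against T4, up to 4 called members of each of 34 lists with the smallest p, a set given in any case (among them EGFR, its ligands, ADAM10, ADAM17, MMPs and TIMPs), and the 5 largest differences in each direction between GM6001 and MMPs and ADAMs. Other names are list members or were picked after their values were seen. Tried alternatives were other normalizations, filters, probe set rules, table handling, array weights and each sample left out. Promoter windows come from RefSeq (GRCh38.p14), with 7501 for the genes tested.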

Additional observations from a re-analysis of the deposited data

How the results depend on the processing

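Against T4, array weights gave 3126 calls (1478 higher and 1648 lower), T4 and the inhibitors of the first table alone 597 (277 higher and 320 lower) and close pairs averaged 134 (43 higher and 91 lower), against 986. Leaving out 1 sample at a time gave 368 to 1205 calls, 130 to 532 of them higher and 238 to 673 lower. Against S1, array weights gave 3856 (2006 higher and 1850 lower), leaving out T4 sample 3 and dominant-negative Rap1 gave 2410 (1302 higher and 1108 lower), and close pairs averaged gave 353 (163 higher and 190 lower), against 1500. Leaving out 1 sample gave 878 to 1910, with 422 to 1004 higher and 428 to 906 lower. The lowest of these counts came without 1 of the inhibitor samples, and without S1 sample 1 there were 934. Against the other 6 agents, the first table gave 2 calls, both higher, and array weights 129 (81 higher and 48 lower), and leaving out 1 sample gave 0 to 1, higher or 0 lower. Of the members of all 34 lists 111 genes were called against T4, 247 with array weights, 33 with close pairs averaged and 65 to 128 with 1 sample left out.

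Of 96 named genes called against T4, 80 kept their call with the first table alone, 36 with close pairs averaged, 85 without T4 sample 3 and 96 with array weights, and none turned round. Some uncalled genes changed sign. EGFR was at 0.10 with quantile normalization across tables and no table block, 0.063 with close pairs averaged, and -0.60 to 0.12 with 1 sample left out. MMP14 was at -0.20 with the probe set of largest spread, -0.078 with the mean of probe sets, -0.081 with array weights, -0.093 without T4 sample 3 and dominant-negative Rap1, and -0.10 to 0.092 with 1 sample left out (-0.016 without MMPs and ADAMs). ITGB1 was at 0.0068 with the mean of probe sets and -0.094 to 0.016 with 1 sample left out. The causes were not tested. Signal over background sets a limit at the dim end, where no detection calls were used. No paired analysis was possible because the inhibitor samples carry no replicate numbers. The alternatives with close pairs averaged, and without T4 sample 3 and dominant-negative Rap1, were chosen after seeing the data.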
